A study of Mus musculus with 12 samples.

Results

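With 2 exceptions, the genes described here encode the subunits of voltage-gated and potassium channels on an Agilent mouse array. They were taken by name: each non-control probe whose gene name begins with Kcn, with Scn and a digit, or with Cacn was kept, and the brightest probe stood for a gene. This gave 135 genes, measured by 196 probes, of 31539 names on the array. Kcnq1ot1 and Kcnrg match by name but belong to no class of channel subunits, and they stay in the counts of channel genes. The names are those of the array's design, and Scn2a1 is Scn2a in RefSeq. The choice used no measured difference.

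RNA came from 4 groups of 3 biological replicates, all derived from 1 C57BL/6 line of mouse embryonic stem cells, abbreviated mESC, with an Actin-eGFP transgene. The stem cells were grown on mouse fibroblast feeders, which were depleted with beads, and every group then passed through 4 days as embryoid bodies and 6 days of selection for neural progenitors in serum-free medium. Step 5 enriched cells and step 5 control cells had 7 further days of neuronal differentiation with B27 and 200 µM ascorbic acid, without bFGF, and step 4 enriched cells and step 4 control cells were neural precursors after 5 days with bFGF at 10 ng/ml. Enriched cells had been captured on magnetic beads through an antibody to PSA-NCAM, the polysialylated neural cell adhesion molecule, and control cells had no such enrichment; the labels leave unsaid whether the step 5 enriched cells met the beads before or after their differentiation. Each of the 12 arrays set 1 sample in Cy5 against the same mESC RNA in Cy3, so a level below is a log2 ratio to mESC and a difference is one between such ratios. Dead cells were removed before the sort, each labelling used 100 ng of RNA, and nothing in the labels tells how much of each culture was neuronal.

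Voltage-gated sodium and calcium channels open when the membrane depolarizes and carry the upstroke of the action potential and the calcium signal that follows it. Potassium channels return the membrane to rest, set the firing rate, and in glia take up the potassium that active neurons release. A channel is built from a pore-forming alpha subunit, or several of them, with auxiliary subunits that set its gating and its transport to the surface. In bulk RNA, a lower level through fewer cells of a type and one through less RNA per cell cannot be told apart.

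Start-site sequence was available in the RefSeq table (build GRCm38.p6, 250 bases before to 50 after the start) for 100 of the 135 genes, with 136 windows. The windows of 4 genes on which the results turn are shown: Kcnd2 had the largest rise with enrichment at step 5, Kcnd3 is its close relative, Kcnj10 had the largest rise between the steps, and Kcnk5 had the largest fall. Capitals mark the GC box, GGGCGG, on either strand. The windows lie at chr6:21215096-21215395 on the plus strand, chr3:105451640-105451939 on the plus strand, chr1:172340960-172341259 on the plus strand and chr14:20181733-20182032 on the minus strand, in that order, and each is written 5′ to 3′ along its gene.
Kcnd2: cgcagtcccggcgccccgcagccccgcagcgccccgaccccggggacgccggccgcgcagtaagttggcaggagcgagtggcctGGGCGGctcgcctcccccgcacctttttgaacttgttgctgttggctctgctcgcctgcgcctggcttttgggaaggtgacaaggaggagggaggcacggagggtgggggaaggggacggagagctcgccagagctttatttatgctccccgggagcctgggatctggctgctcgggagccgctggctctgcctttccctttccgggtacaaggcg
Kcnd3: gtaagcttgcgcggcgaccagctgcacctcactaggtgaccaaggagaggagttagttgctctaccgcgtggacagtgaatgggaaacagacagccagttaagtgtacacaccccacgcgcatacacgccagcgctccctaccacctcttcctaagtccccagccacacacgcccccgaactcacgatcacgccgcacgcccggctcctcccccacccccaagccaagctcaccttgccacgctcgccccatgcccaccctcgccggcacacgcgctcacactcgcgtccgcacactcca
Kcnj10: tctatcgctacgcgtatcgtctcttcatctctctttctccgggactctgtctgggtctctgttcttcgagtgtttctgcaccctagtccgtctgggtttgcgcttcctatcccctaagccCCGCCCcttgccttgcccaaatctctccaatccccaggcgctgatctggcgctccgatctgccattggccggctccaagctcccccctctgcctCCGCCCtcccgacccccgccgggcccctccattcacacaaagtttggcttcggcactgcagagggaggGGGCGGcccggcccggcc
Kcnk5: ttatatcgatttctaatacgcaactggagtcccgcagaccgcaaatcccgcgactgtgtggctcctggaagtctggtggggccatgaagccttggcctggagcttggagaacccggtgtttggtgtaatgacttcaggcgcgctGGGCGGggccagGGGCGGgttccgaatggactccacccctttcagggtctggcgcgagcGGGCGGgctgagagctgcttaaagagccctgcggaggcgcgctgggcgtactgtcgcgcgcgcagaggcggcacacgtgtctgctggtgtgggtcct
The Kcnd2 window held 1 GC box and the Kcnd3 window 0, while the Kcnj10 and Kcnk5 windows held 3 each. All 4 windows were rich in G and C, from 63.7% to 68.7%, with 21 to 26 CpG dinucleotides. A GC box stood in 44.9% of the channel windows and in 35.7% of all 32851 windows. The median GC content was 58.0% over the channel windows and 52.7% over all windows. The letters TATAAA stood in 5.15% of the channel windows and 13.6% of all windows, and the E box CAGATG in 19.9% and 17.2%. The full-length RE1 element, the motif of the repressor REST, stood in 0 of the 136 channel windows and in 0.0365% of all windows. All 4 motifs were searched on both strands, and a match is a run of letters, not a shown binding site.

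The arrays of a group correlated across genes at r = 0.94 to 0.962 in step 5 enriched cells, 0.66 to 0.918 in step 5 control cells, 0.897 to 0.963 in step 4 enriched cells and 0.736 to 0.85 in step 4 control cells. Cy5 was above background on 25605 to 29076 of 39429 probes per array. Replicates 1, 2 and 3 lay on slides 1, 2 and 3, and slide 2 was scanned on another day. In neural and glial markers 3 arrays stood apart. The control arrays of slide 2 had the lowest medians of their groups for astrocyte markers (0.44 at step 5 and 0.1 at step 4) and for neural precursor markers (0.23 and 0.57). Step 4 enriched replicate 1 had a median of 0.72 over 11 neuronal markers against 3.07 and 3.09 in the other replicates. In pluripotency markers the enriched arrays of slide 2 differed as well. Their medians were -3.06 against -4.59 and -4.92 at step 5, and -3.82 against -4.9 and -5.01 at step 4. Counts without the 3 arrays named first, called below the 3 arrays that stand apart, are given beside the main ones, a comparison added after the values were seen. The enriched arrays of slide 2 stay in those counts.

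More channel genes were above background on every array of the enriched groups than of the control groups. On all 3 arrays of a group this held for 105 of the 135 genes (77.8%) in step 5 enriched cells and 67 (49.6%) in step 5 control cells, against 67.4% and 63.3% of all 31539 genes. At step 4 it held for 87 (64.4%) in step 4 enriched cells and 69 (51.1%) in step 4 control cells, against 64.6% and 63.3% of all genes. Such a count is limited by a group's dimmest array, so the counts by array are given as well. By array, 113, 109 and 110 channel genes were above background in step 5 enriched cells, against 94, 70 and 97 in step 5 control cells, where replicate 2 was lowest, and 89, 100 and 103 were so in step 4 enriched cells, against 85, 79 and 84 in step 4 control cells. The groups did not overlap at either step, and the differences between them were not tested. Over all genes 69.9% to 72.4% were above background on the step 5 enriched arrays, against 73.1%, 64.3% and 72.9% on the step 5 control arrays. At step 4 the shares over all genes were 67.1%, 69% and 68.7% on the enriched arrays, against 69.2%, 66.4% and 66.6% on the control arrays. These shares over all genes overlapped between enriched and control arrays at both steps. Of the pore-forming voltage-gated potassium channel genes 32 of 40 were detected in step 5 enriched cells, against 20 in step 5 control cells. The calcium channel gamma family, most of whose members are also auxiliary subunits of AMPA-type glutamate receptors, had 8 of 8 genes above background in step 5 enriched cells and 3 in step 5 control cells, and 6 in step 4 enriched cells and 2 in step 4 control cells. The 4 sodium channel beta genes, which encode adhesion-type auxiliary subunits, were above background in all 4 groups. Of the 135 genes 64 were so on all 12 arrays, and 13 on none.

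**Figure D1:**
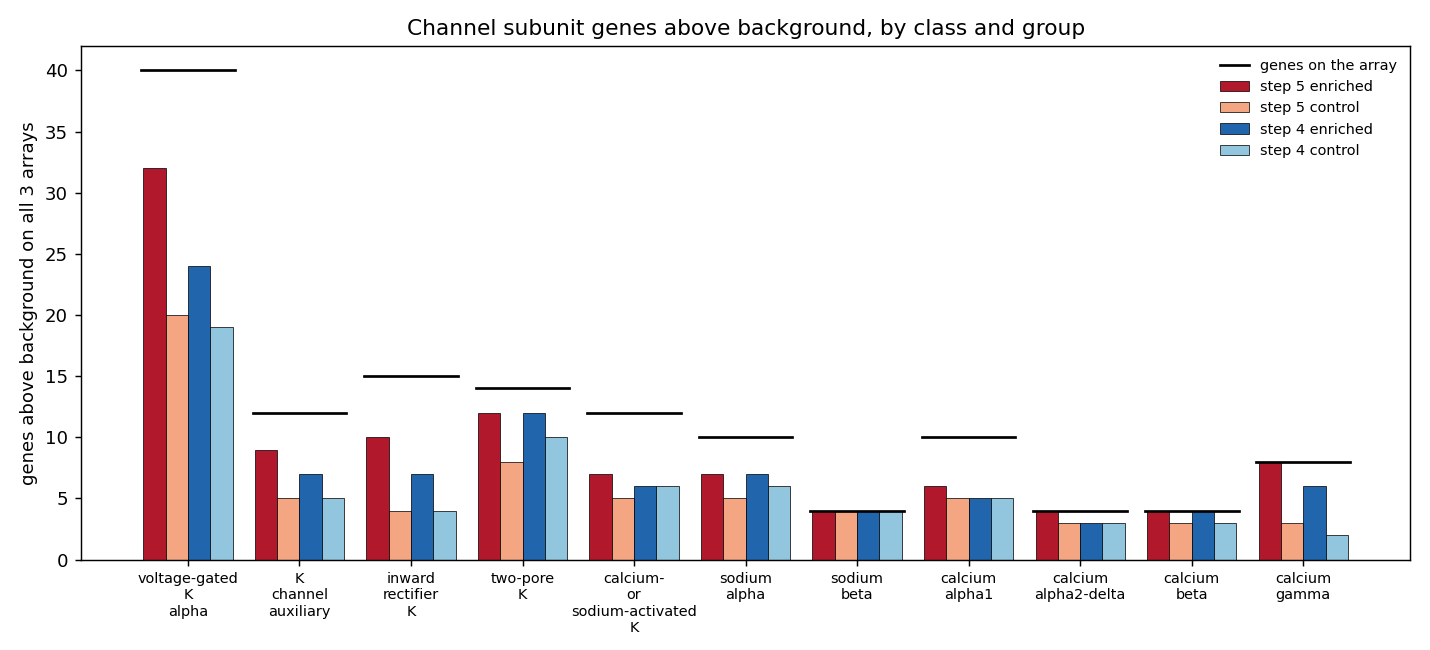
Number of channel subunit genes whose Cy5 signal was above background on all 3 arrays of a group, by class, with black lines at the number of genes on the array; 2 genes outside these classes (Kcnq1ot1 and Kcnrg) are left out. The bars of step 5 enriched cells are the highest of their class or tied for it, and the gap to step 5 control cells is 12 genes among the voltage-gated potassium alpha subunits.

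The test took in 106 of the 135 genes, those above background on every array of some group, and left out 29. The filter favoured a difference between groups in a gene that passed through its bright group alone. The same counts are therefore given for the 64 genes above background on all 12 arrays. Shares by class below are over all tested genes of a class, so the filter bears on them too. It also favoured the rise of any gene below that passed through enriched groups alone. The genes not tested include Cacna1b, Cacna1c and Cacna1e, the pores of N-type, L-type and R-type calcium channels, and Scn9a, a sodium channel of sensory neurons.

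The comparison of step 5 enriched with step 5 control cells asked which channel genes differ after enrichment at the end of differentiation. Of the 106 genes 50 rose and 10 fell by limma at an adjusted p under 0.05, which is 56.6% against 40.5% of all 22221 genes tested (20.4% higher and 20.1% lower). The median difference was 0.44 on the log2 scale over the channel genes and -0.01 over all genes. Of the 64 genes above background on every array 22 rose and 10 fell, which is 50% against 41.4% of all genes so detected, with a median of 0.35. The rises took in the A-type potassium channel genes Kcnd2 and Kcnd3, the neuronal sodium channel genes Scn2a1 and Scn3a, the BK channel pair Kcnma1 and Kcnmb4 and the glial inward rectifier gene Kcnj10, and the falls were led by the two-pore genes Kcnk5 and Kcnk6. Without the 3 arrays that stand apart, 43 rose and 8 fell.

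**Figure D2:**
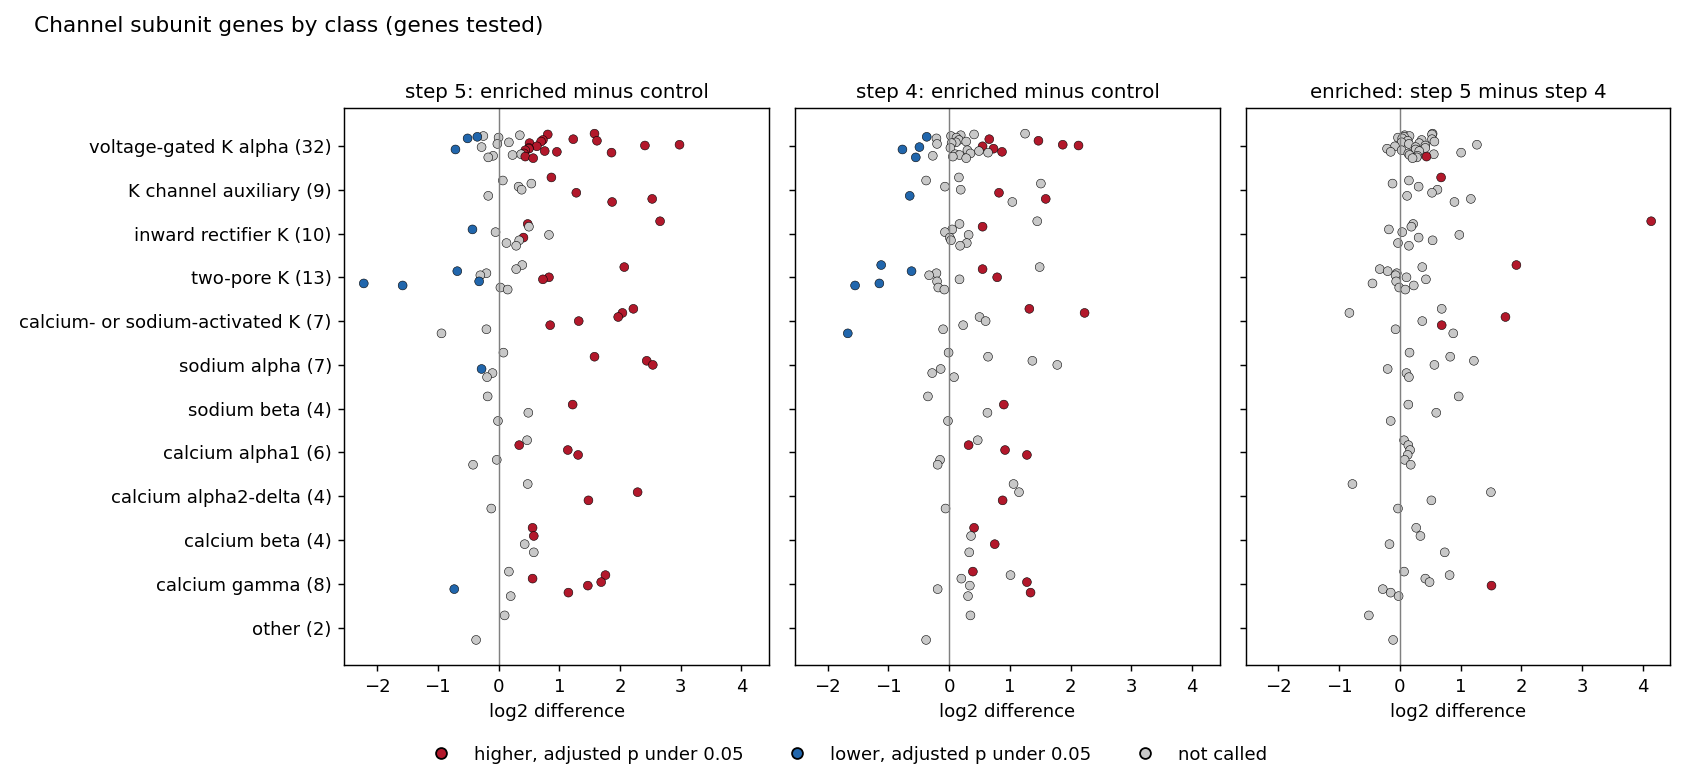
Log2 difference of each tested channel gene, by class (number tested in brackets), for enriched minus control cells at step 5, enriched minus control cells at step 4, and step 5 minus step 4 in enriched cells. Red and blue points passed limma at an adjusted p under 0.05; most red points lie in the step 5 panel, where 50 genes rose and 10 fell, and the third panel has 7 red points and 0 blue ones.

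Kcnd2 and Kcnd3 encode the pores of the A-type potassium current, which opens below spike threshold in dendrites and delays firing. The array's probe for Kcnd2 lies at chr6:21679569-21679628 and that for Kcnd3 at chr3:105476854-105476913 (mm9, plus strand). Kcnd2 stood at 3.94, 3.72 and 4.13 in step 5 enriched cells, against 1.34, 0.14 and 1.37 in step 5 control cells. Its rise was 7.89-fold (log2 2.98, SE 0.52, n = 3 per group, adjusted p = 0.00157 by limma), and the groups did not overlap. Kcnd3 had the higher ratios to mESC, 5.24, 5.01 and 5.03 in step 5 enriched cells against 3.12, 1.71 and 3.22 in step 5 control cells, a rise of 2.41 (SE 0.59, adjusted p = 0.00854). All 3 enriched arrays of both genes lay above all 3 control arrays, and step 5 control replicate 2 was the lowest. A second, dimmer probe of Kcnd3 had a difference of 0.36.

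Most genes of A-type auxiliary subunits were higher as well. KChIP proteins, encoded by Kcnip1 to Kcnip4, bind the inner end of these channels and carry calcium-binding EF hands. Kcnip1 stood at 1.16, 1.68 and 1.58 in step 5 enriched cells, against 0.26, 0.03 and 0.28 in step 5 control cells, where it was above background on 2 of 3 arrays, and rose by 1.28 (SE 0.15, adjusted p = 0.000222 by limma). Kcnip3 stood at 2.71, 2.43 and 3.71 in step 5 enriched cells, against 0.75, -0.83 and 1.34 in step 5 control cells, and rose by 2.53 (SE 0.54, adjusted p = 0.00434). The dimmer of 2 Kcnip3 probes had a difference of -0.38, so the direction of this gene rests on the brighter probe. Kcnip4, named after its values were seen, rose by 1.87 (adjusted p = 0.00397), and Kcnip2, known best from the heart, had a difference of -0.17 (adjusted p = 0.514). Dpp6 and Dpp10, which encode the other auxiliary proteins of the A-type channel and lie outside the name rule, rose by 2.01 and 2.21 (adjusted p = 0.00375 and 0.000499).

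**Figure D3:**
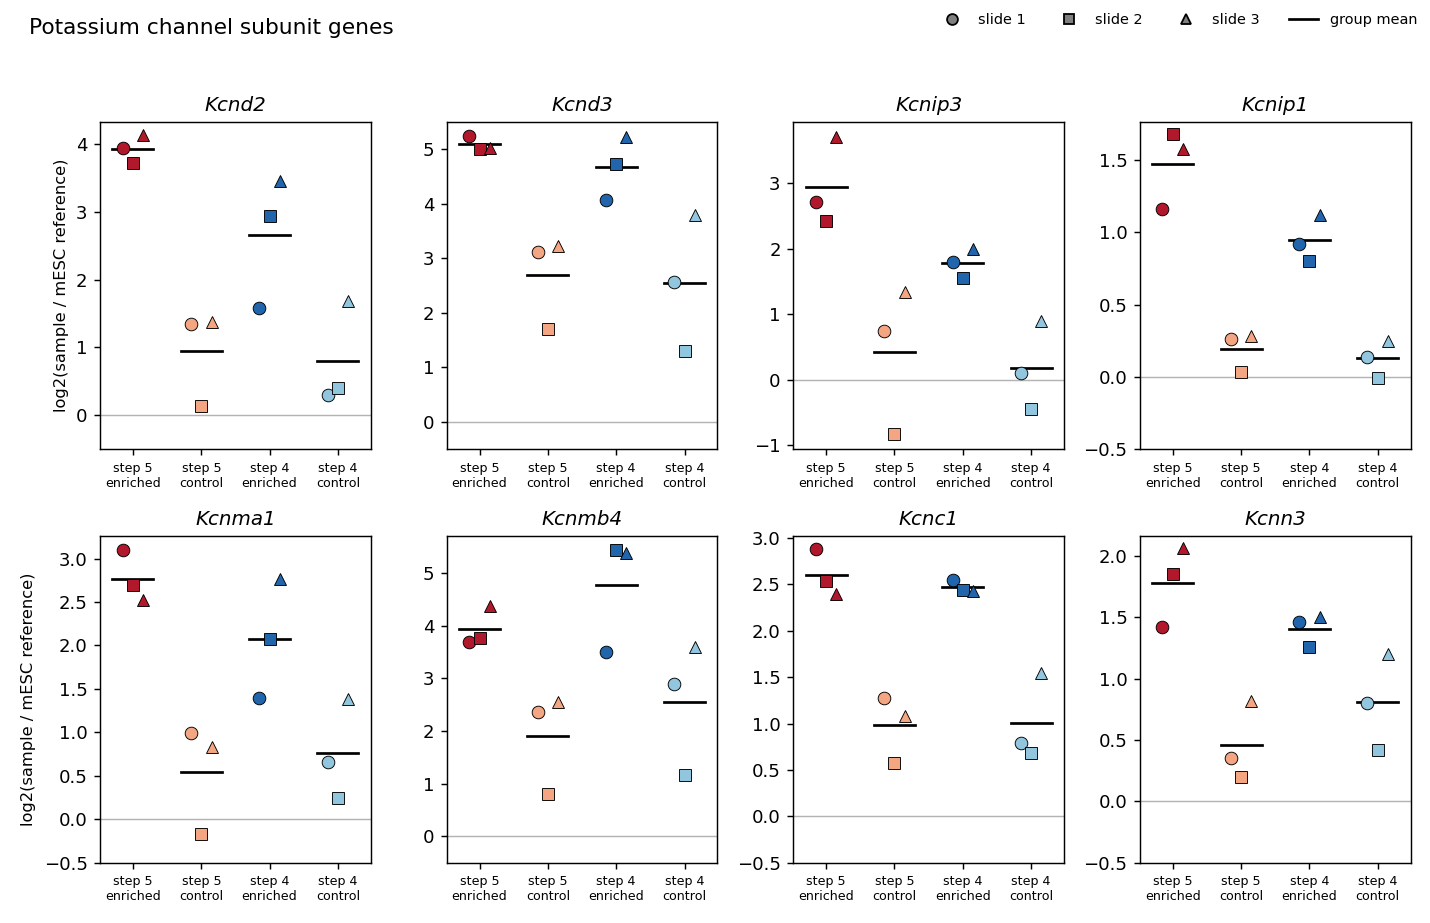
Log2 ratio to mESC of 8 potassium channel genes on each of the 12 arrays, 1 point per array, with the shape giving the slide and the line the group mean. Step 5 enriched cells lie above step 5 control cells on every slide in all 8 panels, and step 4 enriched cells overlap step 4 control cells for Kcnd2 and Kcnmb4.

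Among the voltage-gated potassium alpha genes, the A-type genes included, 19 of 32 rose and 3 fell at step 5, 68.8% against 40.5% of all genes. All 32 were above background on every step 5 enriched array, but only 20 on every step 5 control array. The filter therefore favoured the rise of the others, and the 68.8% is not free of it. Kcnc1, the channel of fast-spiking neurons, stood at 2.88, 2.54 and 2.39 in step 5 enriched cells against 1.28, 0.58 and 1.08 in step 5 control cells and rose by 1.62 (SE 0.24, adjusted p = 0.000689 by limma), with the groups far apart beside their spread. Kcnq3, a pore of the M-current that holds neurons near rest, was above background on 3 arrays of step 5 enriched cells and 0 of step 5 control cells and rose by 0.42 (SE 0.14, adjusted p = 0.0325). Where a gene was above background on no array of a group, its level there is only a bound, and the fitted difference may understate or overstate the change.

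The shaker-type axonal gene Kcna2 rose by 0.81 (SE 0.21, adjusted p = 0.0113 by limma), with 0.47, 1.31 and 0.9 in step 5 enriched cells and 0 of 3 step 5 control arrays above background. Kcna1, its relative in axons, stood at 2.85, 2.67 and 1.13 in step 5 enriched cells against 1.07, 0.06 and 0.79 in step 5 control cells and rose by 1.58 (adjusted p = 0.0495), a call that only the omission of step 4 enriched replicate 1 or 2 or step 5 enriched replicate 3 left standing among the 12 omissions of 1 array. The silent subunit genes, whose products gate no current alone and join other alpha subunits, also had members that rose: Kcnf1, Kcnv1 and Kcng2, named after their values were seen and above background on no step 5 control array, rose by 0.63, 0.57 and 0.5. Kcna1, Kcna2, Kcnf1 and Kcng2 passed the filter through enriched groups alone, so the filter favoured their rises. The second Kcng2 probe had a difference of 0.09. The falls were smaller. Kcnh3, which encodes a forebrain channel of the ether-a-go-go family, fell by 0.71 (SE 0.17, adjusted p = 0.0089) and Kcna7, described mainly in muscle, by 0.51 (adjusted p = 0.0038). Kcna5, a channel of the heart's atria, fell by 0.35 (adjusted p = 0.0212), while its second probe had a difference of 0.35; Kcna6 had a difference of 0 on its brightest probe and 2.37 on a dimmer one.

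Calcium- and sodium-activated potassium channels had 5 of 7 tested genes higher and 0 lower at step 5, 71.4% against 40.5% of all genes. Of the 7 tested, 5 were above background on all 12 arrays. Kcnma1, the pore of the BK channel, which opens on depolarization and calcium together, stood at 3.1, 2.69 and 2.52 in step 5 enriched cells against 0.99, -0.17 and 0.83 in step 5 control cells and rose 4.66-fold (log2 2.22, SE 0.41, adjusted p = 0.00215 by limma). Its 2 dimmer probes had differences of 0.47 and 0.3. Kcnmb4, the BK beta subunit of brain, stood at 3.7, 3.77 and 4.37 in step 5 enriched cells against 2.36, 0.81 and 2.56 in step 5 control cells and rose by 2.04 (SE 0.71, adjusted p = 0.0412). This call was lost without step 4 control replicate 1, step 5 control replicate 1 or 2, or any step 5 enriched replicate, with a value of 1.49 (adjusted p = 0.141) without step 5 control replicate 2. The dimmer Kcnmb4 probe had a difference of 0.74. The SK channel genes Kcnn2 and Kcnn3, whose channels carry the afterhyperpolarization that follows a spike, rose by 1.97 (adjusted p = 0.0023) and 1.32 (adjusted p = 0.00163). The dimmer Kcnn3 probe had a difference of 0.4. Kcnt1, a sodium-activated channel, rose by 0.85 (adjusted p = 0.00363).

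The sodium channel genes split. Scn2a1, the pore found at the initial segment of young axons, stood at 3.26, 3.69 and 3.33 in step 5 enriched cells, against 1.3, 0.24 and 1.43 in step 5 control cells, and rose 5.41-fold (log2 2.44, SE 0.56, adjusted p = 0.0064 by limma). The other 2 Scn2a1 probes had differences of 0.32 and 1.63. Scn3a, known as the embryonic brain channel, stood at 3.92, 3.76 and 3.68 in step 5 enriched cells against 1.5, 0.65 and 1.59 in step 5 control cells and rose by 2.54 (SE 0.8, adjusted p = 0.0276), with 2.56 on the next probe and 0.43 on the dimmest. Scn1a, the channel of inhibitory neurons, stood at 1.61, 1.84 and 2.06 in step 5 enriched cells against 0.13, 0.15 and 0.5 in step 5 control cells and rose by 1.58 (SE 0.32, adjusted p = 0.00361), with 0.34 on the dimmer probe. In these 3 genes the enriched arrays lay close together and above every control array. Scn8a, the main channel of mature nodes of Ranvier, was different: it stood at 0.88, 1.18 and 1.13 in step 5 enriched cells against 1.3, 0.97 and 1.51 in step 5 control cells (difference -0.19, SE 0.16, adjusted p = 0.379), and the groups overlapped. The muscle gene Scn4a fell by 0.28 (adjusted p = 0.0443), a call kept only in the omissions of step 4 enriched replicate 1 and step 5 enriched replicate 1; it is named after its values were seen.

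Of the 4 sodium beta genes, 1 rose, 25% against 40.5% of all genes. Scn2b, which encodes a subunit that binds the pore by a disulphide bond, stood at 1.25, 1.5 and 1.37 in step 5 enriched cells against 0.18, -0.02 and 0.31 in step 5 control cells, a rise of 1.22 (SE 0.16, adjusted p = 0.000383 by limma). Scn3b, which encodes a non-covalently bound subunit, had a difference of 0.49 (adjusted p = 0.232).

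**Figure D4:**
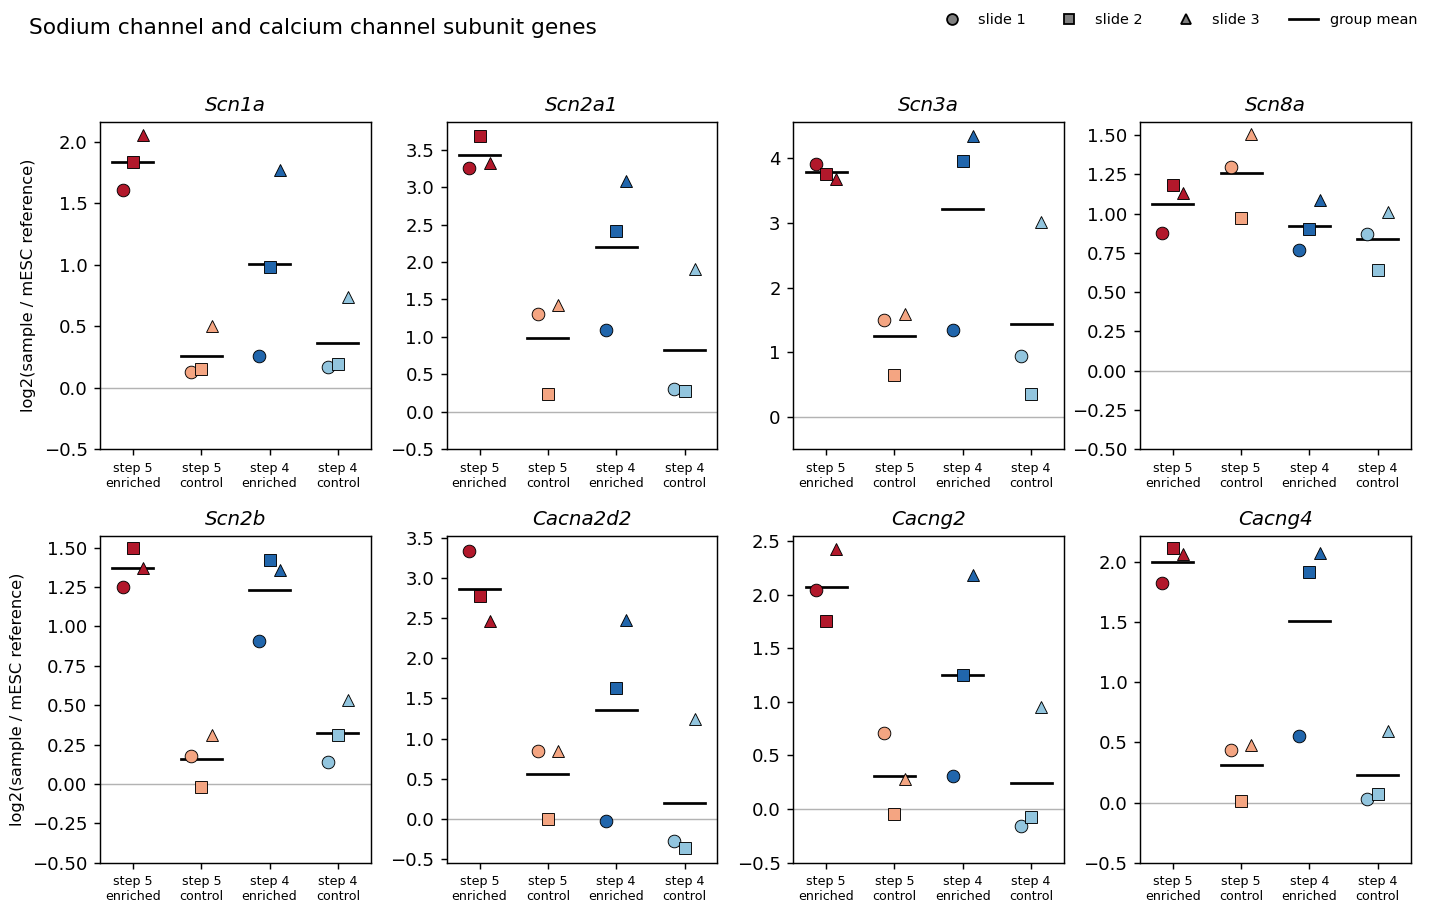
Log2 ratio to mESC of 8 sodium and calcium channel subunit genes on each of the 12 arrays, drawn as for the potassium channel genes. Scn8a lies between 0.64 and 1.51 in all 4 groups, the other 7 genes are higher in step 5 enriched than in step 5 control cells, and step 4 enriched replicate 1 (slide 1) is the lowest of its group in all 8 panels.

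Calcium channel genes that passed the test were mostly those of low-voltage channels and of auxiliary subunits, while the pores Cacna1b, Cacna1c and Cacna1e could not be tested. Of the 6 tested alpha1 genes 3 rose, 50% against 40.5% of all genes. These were the T-type genes Cacna1g (1.14, SE 0.28, adjusted p = 0.00859 by limma) and Cacna1h (1.31, SE 0.43, adjusted p = 0.0339), whose channels open near rest and drive burst firing, and the L-type gene Cacna1d, above background on 0 of 3 step 5 control arrays (0.34, SE 0.1, adjusted p = 0.0252). Cacna1h lost its call without step 5 control replicate 2 or any step 5 enriched replicate (adjusted p up to 0.102), and its dimmer probe had a difference of 0.04. Cacna1d passed the filter through step 5 enriched cells alone, so the filter favoured its rise. The dimmer Cacna1d probe had a difference of 0.06. The other T-type gene, Cacna1i, named after its values were seen, did not pass, with -0.03 on its brightest probe and 1.2 on a dimmer one. Cacna1a, the P/Q-type pore of transmitter release, had a difference of 0.47 (SE 0.36, adjusted p = 0.335), with 0.49, -0.43 and -0.55 in step 5 enriched cells against -0.18, -1.32 and -0.4 in step 5 control cells, which overlap.

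The alpha2-delta subunits, which carry calcium channels to the surface and bind gabapentin, had 2 of 4 genes higher, 50% against 40.5% of all genes. Cacna2d2 stood at 3.34, 2.77 and 2.46 in step 5 enriched cells against 0.85, 0 and 0.84 in step 5 control cells and rose by 2.29 (SE 0.61, adjusted p = 0.0133 by limma). Cacna2d1 had a difference of 0.48 (adjusted p = 0.381). Cacnb1 rose by 0.56 (adjusted p = 0.00899), and Cacnb4, the beta subunit prominent in cerebellum, had a difference of 0.58 (adjusted p = 0.104).

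Of the 8 gamma genes 5 rose and 1 fell, 75% against 40.5% of all genes. Only 2 of the 8, Cacng6 and Cacng7, were above background on all 12 arrays, and these went in opposite directions. Cacng2, Cacng3, Cacng4 and Cacng5 passed the filter through enriched groups alone, so the filter itself favoured their rise. Cacng2, which encodes stargazin, stood at 2.04, 1.75 and 2.42 in step 5 enriched cells against 0.71, -0.05 and 0.28 in step 5 control cells and rose by 1.76 (SE 0.45, adjusted p = 0.0105 by limma). Cacng4 stood at 1.82, 2.11 and 2.06 in step 5 enriched cells against 0.44, 0.01 and 0.48 in step 5 control cells and rose by 1.69 (SE 0.35, adjusted p = 0.00354). Both groups of arrays were separate in both genes. Cacng5 and Cacng7 rose by 1.47 (adjusted p = 0.000959) and 1.15 (adjusted p = 0.00534), and Cacng3, named after its values were seen and above background on no step 5 control array, by 0.56 (adjusted p = 0.0242); the second Cacng7 probe had a difference of 0. These 5 encode partners of AMPA receptors. Cacng6, a relative of the skeletal muscle gamma subunit, fell by 0.73 (SE 0.15, adjusted p = 0.00304).

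Channels that set the resting potential had members in both directions. Kcnj10, the inward rectifier through which astrocytes and oligodendrocytes buffer potassium, stood at 5.91, 4.95 and 4.17 in step 5 enriched cells against 3.84, 0.4 and 2.8 in step 5 control cells and rose 6.32-fold (log2 2.66, SE 0.75, adjusted p = 0.0174 by limma). The 3 enriched arrays were above the 3 control arrays, but by little for replicate 3 against control replicate 1. Without step 5 enriched replicate 1 the call was lost (2.21, adjusted p = 0.0648), and without step 5 control replicate 2 the value was 1.69. Its partner Kcnj16 had a difference of 0.83 (SE 0.41, adjusted p = 0.137). Among 10 inward rectifier genes 3 rose and 1 fell, and this 40% was close to the 40.5% of all genes.

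The two-pore potassium channels, which leak at rest, had 3 of 13 genes higher and 4 lower at step 5, 53.8% against 40.5% of all genes. Kcnk5, a channel opened by alkaline pH and described mainly in kidney and other epithelia, stood at -3.04, -2.04 and -2.97 in step 5 enriched cells against -0.24, -0.55 and -0.61 in step 5 control cells, and its log2 ratio fell by 2.22 (limma, SE 0.26, adjusted p = 0.000196). Kcnk6 stood at -2.34, -1.88 and -2.11 in step 5 enriched cells against -0.99, 0.13 and -0.72 in step 5 control cells and fell by 1.58 (SE 0.43, adjusted p = 0.0144), and without step 5 control replicate 2 its call was lost (-1.25, adjusted p = 0.053). Both genes were below the mESC level in all 4 group means. Kcnk13 fell by 0.68 (adjusted p = 0.00704). Kcnk2, the stretch- and lipid-gated channel of neurons, rose by 0.83 (adjusted p = 0.0102), and Kcnk10 of the same subfamily, named after its values were seen, rose by 2.07 (adjusted p = 0.0218).

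Of the 60 calls at step 5, 36 were kept whichever single array was left out, among them Kcnd2, Kcnd3, Kcnip1, Kcnip3, Kcnc1, Kcnma1, Kcnn2, Kcnn3, Scn1a, Scn2a1, Scn2b, Cacna2d2, Cacng2, Cacng4, Cacng5 and Kcnk5. Scn3a lost its call without step 5 control replicate 1 or 2 or any step 5 enriched replicate (adjusted p up to 0.0836). Under median centring of the arrays instead of loess, the median of all genes moved to 0.14 and 58 channel genes rose and 3 fell; no called gene turned its sign between these scalings.

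Marker genes of other cells moved along the same comparison. Enriched cells at step 5 were lower in all 10 pluripotency markers (array medians -4.92 to -3.06, against -0.91 to -0.77 in step 5 control cells) and in 6 of 14 muscle markers (0.14 to 0.18, against 0.13 to 0.71). They were higher in 8 of 11 neuronal markers (2.07 to 2.45, against 0.08 to 1.26), 8 of 10 astrocyte markers (3.8 to 4.27, against 0.44 to 2.01) and 7 of 11 oligodendrocyte markers (2.58 to 3.31, against -0.07 to 1.89). Over all genes tested 20.4% were higher and 20.1% lower. The genes of the sort antigen, Ncam1, St8sia2 and St8sia4, rose by 1.67, 1.28 and 2.69. The part of any of these cell types in the channel differences was not tested.

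Genes of proteins that hold, place or repress these channels were listed apart from the name rule, 25 genes of which 23 were tested. At step 5, 14 rose and 2 fell (median 1.06), 69.6% against 40.5% of all genes. The 2 that fell were Rest, the repressor of many neuronal channel genes outside neurons (-1.72, adjusted p = 0.000732 by limma), and its corepressor Rcor1 (-0.49, adjusted p = 0.0183). Cntnap2, which clusters shaker-type channels beside nodes, rose by 2.58 (adjusted p = 0.000403). The intracellular FGF gene Fgf12 and the ankyrin gene Ank2, whose products bind sodium channels or anchor membrane proteins, rose by 2.15 and 2.13 (adjusted p = 0.000459 and 0.00112). Ank3, the ankyrin of the axon initial segment, had a difference of 0.53 (adjusted p = 0.227). The sodium leak channel gene Nalcn and its partners Unc79 and Unc80 rose by 0.75, 1.34 and 1.71. Of the hyperpolarization-activated channel genes, Hcn3 rose by 1.39 and Hcn2 had a difference of 0.25 (adjusted p = 0.119).

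The comparison of step 4 enriched with step 4 control cells asked the same of neural precursors before differentiation. Here 24 of the 106 channel genes rose and 10 fell, which is 32.1% against 31.2% of all genes (15% higher and 16.2% lower), so the share of channel genes that passed was close to that of all genes, with rises ahead of falls. The median difference was 0.26, against 0.01 over all genes. Of the 64 genes above background on every array 15 rose and 10 fell, 39.1% against 32.7% of all genes so detected, with a median of 0.11. The rises were again led by A-type and BK channel genes, and no sodium channel alpha gene passed the test. Without the 3 arrays that stand apart, 26 rose and 3 fell.

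Kcnmb4 had the largest rise at step 4, 4.68-fold (log2 2.23, SE 0.71, adjusted p = 0.0361 by limma). It stood at 3.5, 5.44 and 5.39 in step 4 enriched cells against 2.9, 1.16 and 3.6 in step 4 control cells, so that step 4 enriched replicate 1 lay below control replicate 3. Without step 4 control replicate 2 the value was 1.53 (adjusted p = 0.131). The dimmer Kcnmb4 probe had a difference of 1.19. Kcnma1, its pore, stood at 1.4, 2.07 and 2.77 in step 4 enriched cells against 0.66, 0.24 and 1.38 in step 4 control cells and rose by 1.32 (SE 0.41, adjusted p = 0.0342). The dimmer Kcnma1 probes had differences of 0.42 and 0.4.

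Kcnd3 stood at 4.07, 4.72 and 5.22 in step 4 enriched cells against 2.56, 1.29 and 3.79 in step 4 control cells and rose 4.36-fold (log2 2.13, SE 0.59, adjusted p = 0.0205 by limma). Kcnd2 stood at 1.58, 2.94 and 3.45 in step 4 enriched cells against 0.3, 0.4 and 1.68 in step 4 control cells and rose by 1.87 (SE 0.52, adjusted p = 0.0214). The arrays of Kcnd3 did not overlap, and those of Kcnd2 did. Kcnip1 stood at 0.92, 0.8 and 1.12 in step 4 enriched cells against 0.14, -0.01 and 0.25 in step 4 control cells, with 1 of 3 control arrays above background, and rose by 0.82 (SE 0.15, adjusted p = 0.00364). Kcnip3 rose by 1.59 (SE 0.54, adjusted p = 0.0455), and Kcnip2 fell by 0.65 (SE 0.19, adjusted p = 0.0251). The dimmer probe of Kcnip3 had a difference of -0.35 and that of Kcnd3 a difference of 0.18. Of the 12 omissions of 1 array, 4 ended the calls of Kcnd2, Kcnd3, Kcnma1 and Cacng4, those of step 4 control replicates 1 and 2 and step 4 enriched replicates 2 and 3 (adjusted p up to 0.0829, 0.0764, 0.128 and 0.0732), and 8 ended that of Kcnip3, those of every step 4 enriched replicate, step 4 control replicates 1 and 2, step 5 enriched replicates 1 and 2 and step 5 control replicate 1 (adjusted p up to 0.156).

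Genes with smaller spread held their calls at step 4 under every omission of 1 array, 12 of the 34. Kcnc1 stood at 2.55, 2.44 and 2.43 in step 4 enriched cells against 0.79, 0.68 and 1.54 in step 4 control cells and rose by 1.47 (SE 0.24, adjusted p = 0.00192 by limma). Scn2b stood at 0.91, 1.42 and 1.36 in step 4 enriched cells against 0.14, 0.31 and 0.53 in step 4 control cells and rose by 0.9 (SE 0.16, adjusted p = 0.00294). In both genes the enriched arrays lay above all control arrays already in the precursors. Cacng7 rose by 1.34 (SE 0.25, adjusted p = 0.00384), with 1.21, 1.75 and 1.75 in step 4 enriched cells against -0.16, 0.19 and 0.65 in step 4 control cells. The dimmer Cacng7 probe had a difference of 0.12, so this rise rests on the brighter probe.

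Sodium channel alpha genes had 0 of 7 calls at step 4, against 31.2% of all genes called, and their step 4 enriched arrays were spread. Scn2a1 stood at 1.09, 2.42 and 3.09 in step 4 enriched cells against 0.3, 0.28 and 1.91 in step 4 control cells (difference 1.37, SE 0.56, adjusted p = 0.087 by limma, 0.046 with the replicate number as a block). Scn3a stood at 1.34, 3.96 and 4.35 in step 4 enriched cells against 0.94, 0.35 and 3.02 in step 4 control cells (1.78, SE 0.8, adjusted p = 0.116). In both genes step 4 enriched replicate 1 and step 4 control replicate 3 met in the middle. Without the 3 arrays that stand apart, Scn2a1 had a difference of 1.65 (adjusted p = 0.0352) and Scn3a of 2.17 (adjusted p = 0.0237). For Scn1a the difference was 0.64 (adjusted p = 0.161, or 0.035 under the block), and for Scn8a it was 0.08 (adjusted p = 0.738).

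Of the calcium channel genes, Cacna1g and Cacna1h rose by 0.92 and 1.28 (adjusted p = 0.0296 and 0.0459 by limma) and Cacng4 by 1.28 (adjusted p = 0.0188) at step 4. The dimmer Cacna1h probe had a difference of -0.02. Cacna2d2 and Cacng2 had differences of 1.15 (adjusted p = 0.18) and 1.01 (adjusted p = 0.11), with step 4 enriched replicate 1 at -0.03 and 0.31, among the control arrays. Cacna2d1 had a difference of 1.06 (adjusted p = 0.0725). Cacna1d rose by 0.32 (adjusted p = 0.0394), with 2 of 3 step 4 enriched arrays and 0 of 3 step 4 control arrays above background. The dimmer Cacna1d probe had a difference of 0.09.

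The largest fall at step 4 was that of Kcnu1, which encodes the pH-sensitive channel of sperm. It stood at -2.89, -2.44 and -1.94 in step 4 enriched cells against -1.01, -0.62 and -0.63 in step 4 control cells and fell by 1.67 (SE 0.34, adjusted p = 0.00572 by limma). At step 5 its difference was -0.94 (adjusted p = 0.0515, 0.0064 with the block). Kcnk6 stood at -2.78, -1.41 and -2.84 in step 4 enriched cells against -0.94, -0.15 and -1.28 in step 4 control cells and fell by 1.55 (SE 0.43, adjusted p = 0.0209). Kcnk5 stood at -2.46, -1.95 and -2.31 in step 4 enriched cells against -0.87, -1.09 and -1.3 in step 4 control cells and fell by 1.15 (SE 0.26, adjusted p = 0.00827). None of these 3 genes had overlapping arrays. Without the 3 arrays that stand apart, these falls did not pass: Kcnu1 had -1.37 (adjusted p = 0.0502), Kcnk6 -1.01 (adjusted p = 0.105) and Kcnk5 -1.04 (adjusted p = 0.0582).

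Counts at step 4 depended on single arrays, with 17 calls without step 4 control replicate 1 or replicate 2, 18 without step 4 enriched replicate 2 and 15 without step 4 enriched replicate 3. Median centring moved the median of all genes to 0.13 and gave 31 channel genes higher and 5 lower. Beside these differences, all 10 pluripotency markers fell (array medians -5.01 to -3.82 in step 4 enriched cells against -0.98 to -0.68 in step 4 control cells), 4 of 8 neural precursor markers and 2 of 11 neuronal markers rose, and 1 of 10 astrocyte and 0 of 11 oligodendrocyte markers did. Of 14 muscle markers 2 rose and 2 fell, with a median difference of -0.21. Their array medians were 0.45 to 0.88 in step 4 enriched cells against 0.17 to 0.37 in step 4 control cells. Over all genes tested 15% were higher and 16.2% lower. The neural precursor list had array medians of 2.11 to 2.13 in step 4 enriched cells and 0.57 to 1.38 in step 4 control cells. The sort antigen genes Ncam1, St8sia2 and St8sia4 rose by 1.34, 1.37 and 1.86. Of the 23 partner genes 10 rose and 1 fell, 47.8% against 31.2% of all genes. Cntnap2 was at 1.91 (adjusted p = 0.00307 by limma) and Rest at -1.19 (adjusted p = 0.00764), and without step 4 control replicate 2 or step 4 enriched replicate 3 the partner genes had 4 and 5 calls.

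The comparison of step 5 enriched with step 4 enriched cells asked what differs between enriched cells before and after differentiation. Of the channel genes 7 rose and 0 fell, which is 6.6% against 6.42% of all genes (3.95% higher and 2.47% lower), and the median difference was 0.19 against 0 over all genes. Of the 64 genes above background on every array 3 rose, 4.69% against 6.75% of all genes so detected. The largest rise was that of the glial gene Kcnj10, followed by Kcnk1, Kcnn2 and Cacng5, with Kcnt1, Kcnab1 and Kcns2 below 1 on the log2 scale. With the replicate number as a block 13 channel genes rose, among them Kcnip1, Kcnip3, Kcnu1 and Scn1a, which did not pass without it (differences of 0.53 to 1.17).

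Kcnj10 stood at 5.91, 4.95 and 4.17 in step 5 enriched cells against 0.12, 1.39 and 1.08 in step 4 enriched cells. It rose 17.7-fold (log2 4.14, SE 0.75, adjusted p = 0.0122 by limma), and its lowest step 5 array was far above its highest step 4 array. The probe lies at chr1:174304062-174304121 (mm9, plus strand). In control cells its difference between the steps was 2.94 (adjusted p = 0.256), with 3.84, 0.4 and 2.8 in step 5 control cells against -0.3, -0.81 and -0.65 in step 4 control cells.

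Kcnk1, a weakly conducting two-pore channel of neurons and astrocytes, stood at 0.59, 0.13 and -0.74 in step 5 enriched cells against -1.9, -1.78 and -2.1 in step 4 enriched cells and rose 3.78-fold (log2 1.92, SE 0.36, adjusted p = 0.0141 by limma). At step 4 it was lower in enriched than in control cells by 1.12 (adjusted p = 0.0387), a call lost without any step 4 enriched replicate, step 4 control replicate 2 or 3, step 5 enriched replicate 2 or step 5 control replicate 1 or 3 (-0.75, adjusted p = 0.14 without step 4 control replicate 2), and at step 5 the difference was 0.39 (adjusted p = 0.425). Kcnn2 stood at 0.49, 1.88 and 1.61 in step 5 enriched cells against -1.03, -0.24 and 0.02 in step 4 enriched cells and rose by 1.74 (SE 0.37, adjusted p = 0.0232). Cacng5 stood at 1.63, 1.58 and 2.12 in step 5 enriched cells against -0.19, 0.42 and 0.58 in step 4 enriched cells, above background on 2 of those 3 arrays, and rose by 1.51 (SE 0.23, adjusted p = 0.00688). All 3 genes had separate arrays at the steps.

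**Figure D5:**
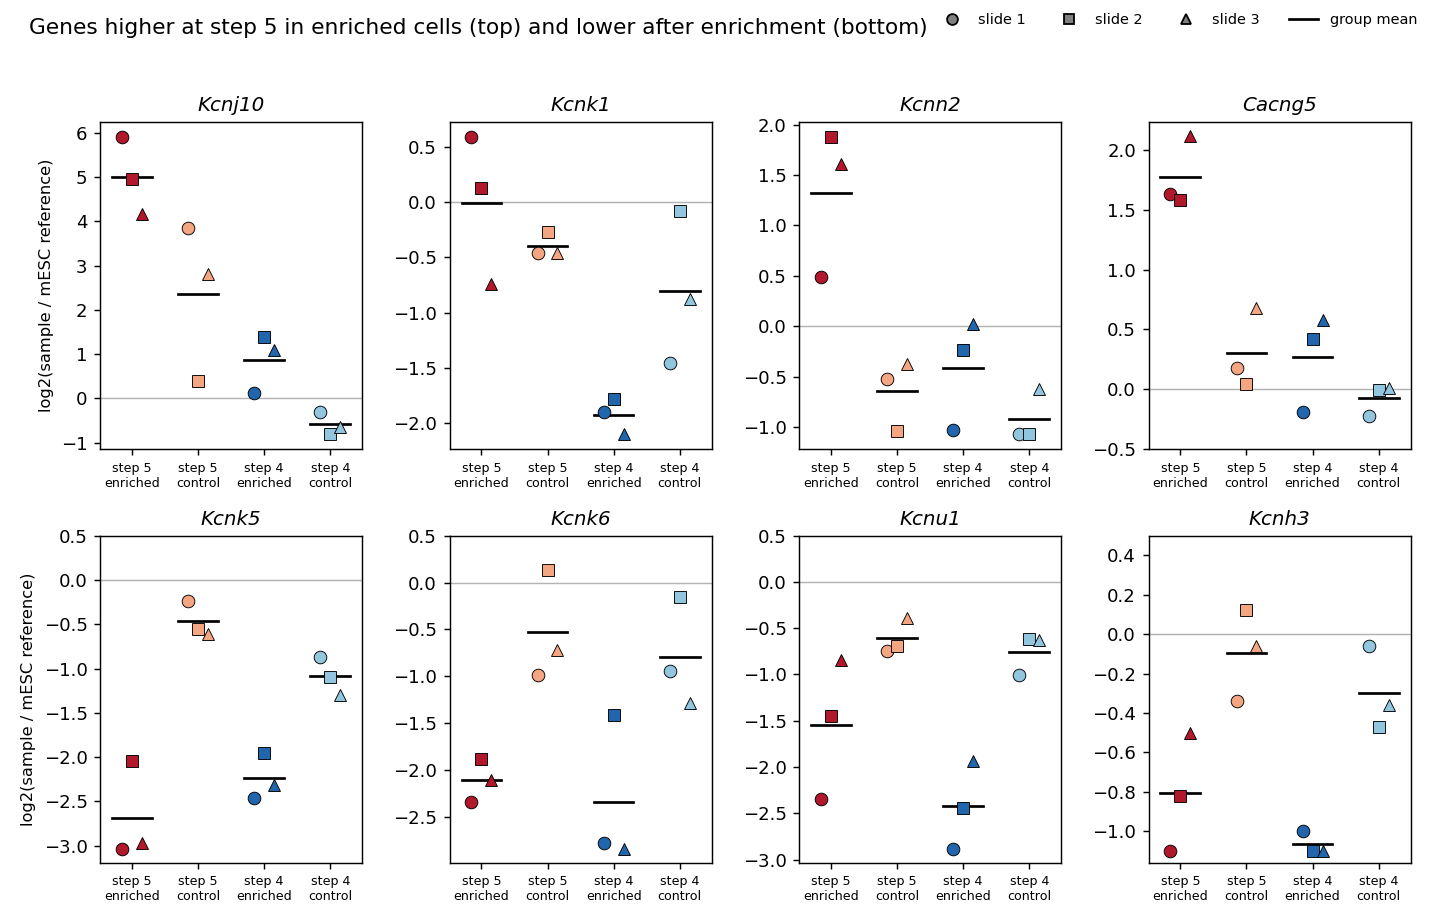
Log2 ratio to mESC of 4 genes that rose between the steps in enriched cells (top) and 4 that fell with enrichment (bottom), 1 point per array, drawn as before. Kcnj10 spans 4.17 to 5.91 in step 5 enriched cells and 0.12 to 1.39 in step 4 enriched cells, and Kcnk5 is at -1.95 or lower in both enriched groups.

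Some genes that rose with enrichment at step 5 did not pass the test between the steps. Among them were the pore genes Kcnd2 (1.27, SE 0.52, adjusted p = 0.184 by limma) and Scn2a1 (1.22, SE 0.56, adjusted p = 0.234) and the auxiliary gene Cacna2d2 (1.5, SE 0.61, adjusted p = 0.182). In Kcnd2, Scn2a1 and Cacna2d2 step 4 enriched replicate 1 was the lowest array, at 1.58, 1.09 and -0.03. Kcnc1 and Scn2b, higher with enrichment at both steps, had differences of 0.13 (SE 0.24, adjusted p = 0.803) and 0.14 (SE 0.16, adjusted p = 0.666). Only Cacng5, Kcnj10 and Kcnk1 of the 7 genes kept their calls without any single array, and the count was 3 without step 4 enriched replicate 2 or step 5 enriched replicate 3 and 4 without step 5 enriched replicate 2. Without the 3 arrays that stand apart 5 rose and 1 fell, with Kcnj10, Kcnk1, Cacng5 and Kcnab1 higher by 3.77, 1.93, 1.28 and 0.63, and Kcnmb4 lower (-1.47).

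Glial markers moved in the same comparison. Of the astrocyte markers 5 of 10 rose and of the oligodendrocyte markers 6 of 11, with Gfap higher by 5.66, Aqp4 by 4.86 and Mag by 4.6, while 0 of 11 neuronal and 0 of 10 pluripotency markers passed. Over all genes tested 3.95% were higher and 2.47% lower. The astrocyte list had array medians of 3.8 to 4.27 in step 5 enriched cells and 0.83 to 1.55 in step 4 enriched cells, and the oligodendrocyte list 2.58 to 3.31 and -0.16 to 0.56. The part of glial cells in the rise of Kcnj10 was not tested. Among the partner genes Dpp10 alone rose (1.53, adjusted p = 0.019 by limma), and without the 3 arrays that stand apart 0 of the 23 passed.

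Between step 5 control and step 4 control cells 0 of the 106 channel genes passed limma, as did 0% of all genes, with 8 channel genes (7.55%) at an unadjusted p under 0.05 against 8.55% of all genes. The smallest adjusted p was that of Kcnj10, 0.256. Leaving out step 5 control replicate 2 gave 1 call.

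The last comparison asked whether the enrichment difference itself changed between the steps, as step 5 enriched minus control against step 4 enriched minus control. By limma 0 channel genes passed, as did 0% of all genes, and 15 (14.2%) had an unadjusted p under 0.05 against 7.06% of all genes; the smallest adjusted p was 0.369, for Kcnab1 (0.72). Larger values were those of Kcnk1 (1.51), Kcnn2 (1.46), Cacng5 (1.13) and Kcnk5 (-1.07), with adjusted p from 0.426 to 0.569. A call at 1 step and none at the other, as for Scn1a or Scn3a, is therefore not shown to be a difference between the steps.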

How the data were processed

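Per the file headers, the scanner files hold intensity values: spot means and local background medians, not yet subtracted, for Cy5 and Cy3 (Feature Extraction 10.5.1.1 on slide 2 and 10.7.3.1 on slides 1 and 3; annotation on mm9). They also hold a log10 ratio of Cy5 to Cy3 that the software had background-subtracted and dye-normalized, per the file headers. The authors' deposited values are in log2, and how it was made is not given in the sources used here; 99.4% to 99.5% of its values equalled the software's ratio within 0.001.

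Signals were corrected by normexp (offset 50) and normalized by loess within arrays in R 4.3.3 with limma 3.58.1. Of 44397 spots, 1377 control spots and 128 to 298 outlier spots per array were dropped, and repeat spots of 1 probe were replaced by their mean. Cy5 held the sample on every array, with 0 dye swaps. On slide 2 the annotation was older, so probes were named on every array by the newer one; 1 channel probe has its name in the newer alone. Genes entered the test where Cy5 exceeded background on every array of some group. A linear model on the 4 group means was fitted by lmFit and eBayes to all 12 arrays, two-sided, with Benjamini-Hochberg adjustment over 22221 genes and a threshold of 0.05; SE is that of the moderated fit. The number of arrays limits the precision. Promoter motifs were counted with Python 3.11.15 and pandas 2.3.3. The code was tested on simulated data with known differences.

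The channel genes and all lists were chosen with earlier results of these data known. Genes named are the 6 largest rises and falls per comparison among those called with 1 sign on all 3 slides, a fixed set of 38 channel genes, and genes of the partner and marker lists; others are marked. The values of some genes that this rule names are not reported here. Arrays of the same number mostly deviated from their group means together (correlations of 0.13 to 0.644 at step 4, 0.19 to 0.361 at step 5, 0.341 to 0.414 between enriched and 0.463 to 0.747 between control groups). Step 4 control with step 5 enriched arrays had 0.252 to 0.336, and step 4 enriched with step 5 control arrays -0.133 to 0.228. The labels name no pairing, and the numbers are also the slides, so paired samples and a slide effect cannot be told apart. The main fit has no block, and the block is given where it changes a call or count. Alternatives changed the normalization, background, filter, probe choice, block, weights and arrays.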

Additional observations from a re-analysis of the deposited data

How the results depend on the processing

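With 29 other settings, counts of channel genes past the threshold ran from 23 to 66 at step 5 (60 in the main fit), 6 to 40 at step 4 (34), 1 to 13 between the enriched groups (7) and 0 to 1 between the control groups (0), and stayed at 0 for the difference of the enrichment effects. Counts of members moved by over 1.5 times in these settings. At step 5 there were 32 with Cy5 above background on all 12 arrays and 23 without slide 2. At step 4 there were 6 without slide 2 and 22 with only the 2 groups in the fit. Between the enriched groups there were 3 with the filter on all 12 arrays, 12 with array weights, 1 without slide 2 and 3 with only the 2 groups in the fit. Between the control groups there was 1 with array weights and 1 without the 3 arrays that stand apart. Leaving out 1 array at a time gave 43 to 61 at step 5, 15 to 37 at step 4, 3 to 10 between the enriched groups and 0 to 1 between the control groups. The cause of these shifts was not tested, beyond the fewer arrays or genes in some of the settings.

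The replicate block gave counts of 65 members at step 5, 40 at step 4, 13 between the enriched groups, and 0 in the other comparisons. It ended no call. Beside genes in the report, those it added include Cacnb3 (0.43, adjusted p = 0.043), Kcnj12 (0.5, 0.049) and Kcnk16 (-0.3, 0.034) at step 5, and Kcne1l (1.51, 0.034), Kcnip4 (1.04, 0.036), Kcnn3 (0.6, 0.019) and Kcnk16 (-0.33, 0.027) at step 4. The dimmer Kcnn3 probe had a difference of -0.06 at step 4.

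The 101 called values were recomputed 2888 times: 2420 kept direction and call, 467 lost the call and 1 turned. That was Kcna5 at step 5, 0 as the mean over its 2 probes (adjusted p = 0.99). Of 279 values not called, recomputed 7901 times, 108 gained a call. Dim probes limit the rest: 29 genes had too few arrays above background to test, and 33 genes had over 1 probe past the filter, which did not always run the same way.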
